A study of Schizosaccharomyces pombe with 13 samples.

Results

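The double deletion of xap5 and pht1 was compared with wild type in haploid cells of the fission yeast Schizosaccharomyces pombe. The comparison was found by its labels and takes 7 of the 13 samples of the series, 3 of the double deletion and 4 of wild type. The double deletion is h-, with SPCC1020.12c (xap5) replaced by KanMx4 and SPBC11B10.10c (pht1) by NatMx4, and the wild type is h+. Both derive from ED668 and carry ade6-M216, ura4-D18 as well as leu1-32. Cells were grown overnight at 30 °C in YES medium, and were taken in exponential growth at 37 °C in EMM50. The labels state 3 replicates per genotype, and which of the 4 wild-type libraries entered the deposited comparison is not known. They do not say how many clones of the double deletion were used. Since mating type differs with genotype, the 2 cannot be told apart in any fold given here.

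The gene pht1 encodes H2A.Z, a variant of histone H2A that is placed in nucleosomes near gene starts by the SWR1 complex and is known in fission yeast for holding down antisense and other stray transcripts. The gene xap5 encodes a conserved nuclear protein that associates with chromatin. The series asks, by its title, how these genes act together against aberrant transcripts. Such transcripts can run antisense to genes, start between genes or come from retrotransposons, and the tables of the authors cover each of these.

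Total RNA was depleted of ribosomal RNA, and strand-specific libraries were sequenced with single reads of 100 bases in 2 lanes, at a stated mean of 11.8 M reads per library. The deposited data are 4 tables of the authors' own comparison with, for each feature, a log2 fold of the double deletion over wild type with its p, raw and adjusted. No value per library was used here, so spreads and overlaps between samples cannot be given, and a feature counts as changed where the deposited adjusted p is under 0.05. The labels do not say whether libraries came from separate cultures, so these p-values may measure technical spread only. RNA was measured in bulk, where fewer cells with a transcript and less of it per cell cannot be told apart.

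Both deleted genes were lower in the double deletion, by less than a complete loss would give. In the authors' deposited table the entry of xap5 (ASM294v3, chromosome III 755252 to 756290) fell by 2.11 on the log2 scale (adjusted p = 7.29e-04) and that of pht1 (chromosome II 1502203 to 1503444) by 1.55 (adjusted p = 1.74e-10). The span of xap5 overlaps the end of SPCC1020.13c on the same strand. The intron of xap5 (chromosome III 755406 to 755468), which stands in the intergenic table, had a deposited log2 fold of −0.09 (adjusted p = 0.964), so the labelled loss of xap5 rests on its sense entry. On the strand opposite to pht1 the deposited signal rose, with a log2 fold of 4.05 (adjusted p = 1.11e-38). By the labels this locus holds the NatMx4 cassette in the double deletion, and the source of the signal was not tested. Of the genes nearest to the deleted ones, oca2, a protein kinase gene past xap5, rose by a deposited log2 fold of 1.60. Near pht1 wwm1 (0.98) and shy1 (0.76) rose, naa25 fell (−0.74), and cdc2, the main cyclin-dependent kinase, had −0.21 with a deposited adjusted p of 0.129.

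More entries of the sense table fell than rose, while those that rose did so further. Of 5747 sense entries 1755 rose (30.5%) and 1973 fell (34.3%) in the deposited table, and the median log2 fold was −0.05. By at least 2-fold, 869 rose and 293 fell. Protein-coding genes leaned downward, with 1346 of 4997 higher and 1922 lower and a median deposited log2 fold of −0.13. Other classes leaned upward. Of 657 noncoding RNAs that are not antisense 350 rose and 37 fell (median 0.79), of 27 pseudogenes 20 rose and 3 fell (median 1.31), and of 52 genes described as dubious 37 rose and 3 fell (median 1.20). Noncoding RNAs that overlap no gene on their strand had nearly the same deposited median (0.78, 445 RNAs) as those that do (0.93, 127 RNAs).

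**Figure D1:**
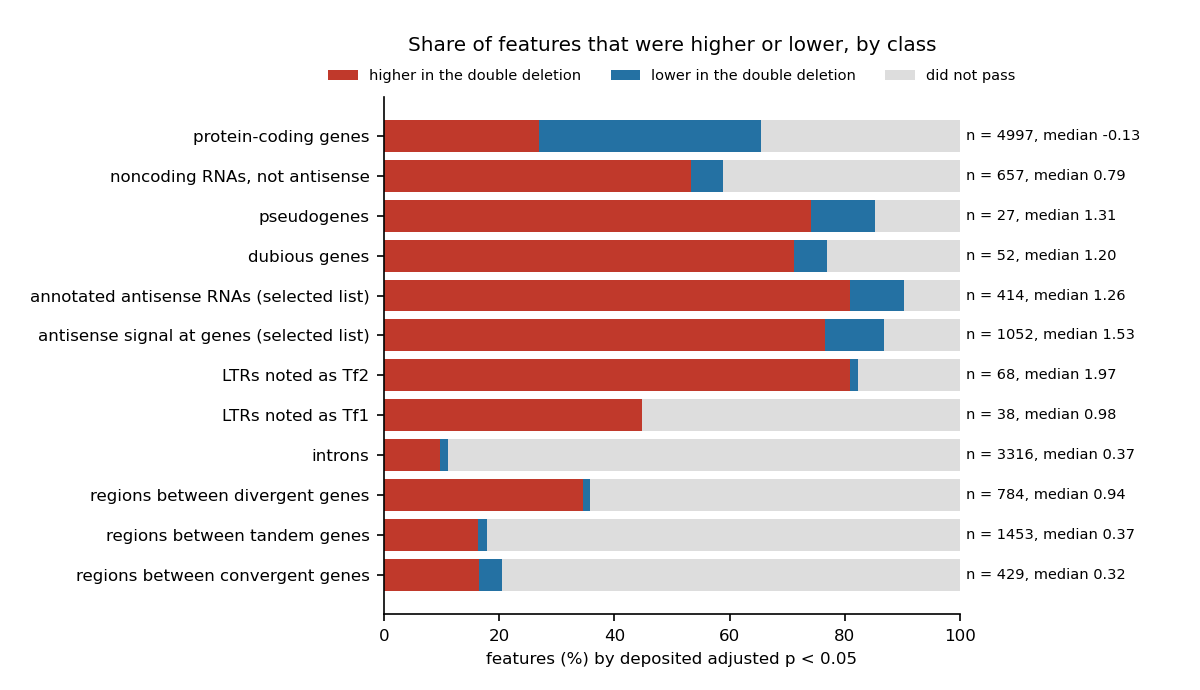
Bars give the share of features in each class (x axis, percent) that were higher (red) or lower (blue) in the double deletion by deposited adjusted p under 0.05, or that did not pass (grey), with the number of features and the median log2 fold at the right. Of protein-coding genes 1346 were higher and 1922 lower, whereas 350 of 657 noncoding RNAs were higher and 37 lower. Both antisense classes come from a list that the authors selected for change.

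The 12 highest deposited folds include 4 noncoding RNAs. The noncoding RNA SPNCRNA.1054, noted as a possible alternative end of a neighbouring transcript and overlapping it, stood first with a deposited log2 fold of 6.94 (adjusted p = 1.97e-15). It was followed by SPAC869.09 (6.39), the predicted hydroxyacid dehydrogenase gene SPAC186.02c (6.34), the stress gene ddr48 (6.24), SPAC11D3.01c (5.93), SPBPB21E7.10 (5.92) and the noncoding RNA SPNCRNA.540 (5.92). Next in the deposited table were hsp3102, a gene of the DJ-1 family (5.81, overlapping another gene), SPNCRNA.549 (5.79), prl65 (5.79), the metallothionein gene zym1 (5.63), which binds metals, and SPNCRNA.1256 (5.53). SPBPB21E7.06, a pseudogene, and SPBC3E7.17, a dubious gene, had folds beyond 20 in the deposited table, which stands for a group without reads and gives no usable fold. Both had a deposited adjusted p under 0.05 and were higher in the double deletion.

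Among the 12 lowest deposited folds were those of predicted transporter and enzyme genes and of 2 noncoding RNAs. The predicted membrane transporter gene SPBC460.05 fell by 3.85 (adjusted p = 5.2e-101) and SPBC460.04c, a predicted dioxygenase gene, by 2.62 in the deposited table. Also lower were SPBPB2B2.08 (−3.25), the centromeric RNA SPNCRNA.485 (−2.90, a repeated sequence), the predicted cysteine transporter gene SPBPB10D8.01 (−2.80) and gln1 (−2.66), which encodes glutamine synthetase. They were joined in the deposited table by SPNCRNA.1124 (−2.64, overlapping another gene), the predicted sorbose reductase gene SPAC8E11.10 (−2.53), the predicted urea transporter gene SPBC23G7.13c (−2.51), the vitamin B6 importer gene bsu1 (−2.46), SPAC212.08c (−2.28) and the predicted arylsulfatase gene SPBPB10D8.02c (−2.26).

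Chaperone genes, whose products keep proteins folded and are induced by heat, were mostly higher, although both groups were grown at 37 °C. Of 27 listed, which include the factor gene hsf1 and genes of the DJ-1 family such as hsp3102 and hsp3104, 20 rose and 3 fell. The median deposited log2 fold of the list was 1.50. The small heat shock gene hsp16 had 5.15 (adjusted p = 2.33e-99) and the Hsp70 gene ssa1 3.19 (adjusted p = 3.89e-100), followed in the deposited table by hsp9 (4.02) and hsp3104 (2.67), both overlapping another gene. The Hsp70 gene ssa2 (2.69, overlapping another gene), the disaggregase gene hsp104 (2.65), the co-chaperone genes sti1 (2.08) and psi1 (2.18) and hsp90 (1.95) also rose in the deposited table. The heat shock factor gene hsf1 itself rose by 0.44. The fallers were bag102 (−0.56), pdi1 of the endoplasmic reticulum (−0.45) and the Hsp110-type gene pss1 (−0.31), and the mitochondrial Hsp70 gene ssc1 had −0.17 and did not pass in the deposited table.

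Stress genes moved in the same direction. Of 38 genes of trehalose, glycerol and core stress response 30 rose and 4 fell (median deposited log2 fold 1.85). Among them were the catalase gene ctt1 (3.83), gst2 of glutathione transfer (3.52), sro1 (3.53), ish1 of the nuclear envelope (3.40), gpx1 of peroxide removal (3.39), ntp1 (2.74), which encodes trehalase, tps1 (2.22), which makes trehalose, and gpd1 (1.71), which makes glycerol, all by the deposited table. Of these ish1, tps1 and gpd1 overlap another gene. The bZIP factor genes atf1 (2.25, overlapping another gene) and pcr1 (1.59) and the phosphatase genes pyp1 (2.36) and pyp2 (1.99), which act on the stress kinase Sty1, rose too. The kinase genes sty1 (0.07) and wis1 (−0.11) did not pass in the deposited table. Lower were gpd2 (−0.78), trx2 (−0.60), hmt2 (−0.45, overlapping another gene) and trr1 (−0.37).

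Promoters of these genes are shown because the stress factors bind short known motifs. Each is 300 bases of RefSeq sequence (ASM294v3), 250 before and 50 after the gene start, on the strand of the gene. Capitals mark GAANNTTC, the core of a heat shock element, in ssa1 (I:2297915-2298214) and hsp16 (II:2660943-2661242), and TGACGT or its complement, a site of the ATF/CREB type, in ish1 (II:2518664-2518963) and ctt1 (III:58784-59083).
ssa1: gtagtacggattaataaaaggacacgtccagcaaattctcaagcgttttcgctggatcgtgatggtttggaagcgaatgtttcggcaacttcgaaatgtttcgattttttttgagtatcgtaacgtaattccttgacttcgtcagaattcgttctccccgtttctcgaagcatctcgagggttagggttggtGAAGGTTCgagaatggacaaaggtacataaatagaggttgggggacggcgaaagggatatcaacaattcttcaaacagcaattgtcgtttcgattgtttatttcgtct
hsp16: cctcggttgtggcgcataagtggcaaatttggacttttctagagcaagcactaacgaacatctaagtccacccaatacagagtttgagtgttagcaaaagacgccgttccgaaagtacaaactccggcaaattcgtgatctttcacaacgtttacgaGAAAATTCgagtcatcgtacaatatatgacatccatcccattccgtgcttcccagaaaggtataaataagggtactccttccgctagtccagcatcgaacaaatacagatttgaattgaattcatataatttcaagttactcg
ish1: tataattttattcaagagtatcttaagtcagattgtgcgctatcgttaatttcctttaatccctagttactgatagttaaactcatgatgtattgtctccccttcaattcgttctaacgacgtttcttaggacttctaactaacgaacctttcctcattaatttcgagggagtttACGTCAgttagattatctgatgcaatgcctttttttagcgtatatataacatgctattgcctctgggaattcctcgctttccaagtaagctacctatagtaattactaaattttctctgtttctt
ctt1: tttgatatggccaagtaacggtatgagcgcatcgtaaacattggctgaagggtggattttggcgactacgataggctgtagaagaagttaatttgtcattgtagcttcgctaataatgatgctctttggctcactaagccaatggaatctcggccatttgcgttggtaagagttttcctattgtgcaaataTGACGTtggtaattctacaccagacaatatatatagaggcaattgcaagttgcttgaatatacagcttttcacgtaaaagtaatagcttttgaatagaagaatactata

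GAANNTTC, which reads the same on both strands, was in 12 of 27 promoters of the chaperone list (44.4%) and in 557 of all 5038 promoters read (11.1%). The opposite arrangement TTCNNGAA was in 4 of 27 (14.8%) and in 509 of all (10.1%). TGACGT was searched on both strands and found in 8 of 38 stress promoters (21.1%) and in 297 of all (5.9%). Over the whole table it was in 96 of 567 promoters of genes that rose at least 2-fold (16.9%), in 17 of 273 of genes that fell at least 2-fold (6.23%) and in 72 of 1737 of genes that did not pass (4.15%). GAANNTTC differed less between these groups, with 12.9%, 8.79% and 11.2%. Promoters with TGACGT had a median deposited log2 fold of 0.37, those without it −0.14. These matches describe letters in a window and show no binding.

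Genes listed under glucose repression and hexose use, with some regulators among them, were mostly higher. Of 26 listed 21 rose and 1 fell (median deposited log2 fold 1.39). Without entries within 100 kb of a chromosome end 15 rose and 1 fell. Folds were 5.35 for the dihydroxyacetone kinase gene dak2, 5.28 for mel1, an alpha-galactosidase gene, 4.06 for the glycerol dehydrogenase gene gld1, 3.91 for the invertase gene inv1 (overlapping another gene) and 3.35 for fbp1 of gluconeogenesis, from the deposited table. The galactose genes gal10 (2.55), gal1 (1.47) and gal7 (0.50) rose, as did the repressor gene scr1 (2.11) and the kinase gene pka1 (1.31) in the deposited table. The hexose transporter genes divided. ght3 (3.66), ght6 (1.93), ght4 (1.67, overlapping another gene) and ght1 (0.46) rose, whereas ght2 (0.19), ght5 (−0.20), ght7 (−0.13) and ght8 (−0.25) did not pass in the deposited table. The alcohol dehydrogenase gene adh4 fell (−1.17).

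Genes for other nutrients did not move as 1 group. Of 16 genes repressed by thiamine or phosphate 9 fell and 3 rose (median deposited log2 fold −0.51). The acid phosphatase genes pho4 (−2.14) and pho1 (−0.89) and the thiamine synthesis genes thi2 (−1.53) and thi4 (−1.32) were lower in the deposited table, and the ligase gene pqr1 (1.20) and gde1 (0.70) were higher. Among 24 iron genes 8 rose and 8 fell, 33.3% each and so near the shares of all sense entries (30.5% and 34.3%). Of protein-coding genes alone 26.9% rose and 38.5% fell. The risers were led by isu1 (2.13) of iron-sulfur clusters and the heme receptor gene shu1 (3.05), and the fallers held grx4 (−1.33) and hem13 (−1.53), in the deposited table. Among 23 genes of nitrogen starvation 10 rose (43.5%) and 8 fell (34.8%), the latter near the share of all sense entries. The ammonium transporter genes parted, with amt3 at 1.76 and amt1 at −1.68 in the deposited table, while isp6 (2.95, a protease gene overlapping another gene), ste11 (2.48) and mei2 (1.38), which act in mating and meiosis, rose.

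Short chain dehydrogenase and aldo/keto reductase genes had 11 of 18 members higher and 2 lower (median deposited log2 fold 1.15), with SPCC1739.08c at 5.27 and SPCC663.08c at 4.45. Autophagy genes, which recycle cell contents, rose in 17 of 20 cases and fell in 2 (median deposited log2 fold 0.69), among them atg13 (1.57), atg2402 (1.97), atg1801 (1.87) and atg8 (1.20). Of 33 genes of the respiratory chain and ATP synthase 20 rose and 0 fell by deposited adjusted p under 0.05 (median 0.33), with nde1 at 1.30, qcr8 at 1.24 and rip1 at 1.08, of which nde1 and qcr8 overlap another gene. Ubiquitin ligase and F-box genes had 31 of 58 higher and 10 lower, with a deposited median of 0.37.

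Genes that build and run ribosomes were lower almost throughout. Of 69 ribosome biogenesis genes 65 fell and 0 rose by deposited adjusted p under 0.05 (median log2 fold −0.78), such as dbp3 (−2.04) and dbp2 (−1.47), both helicase genes, utp6 (−1.19) and rpf2 (−1.27). Of 138 genes of cytosolic ribosomal proteins 121 fell and 1 rose (median deposited log2 fold −0.58). The acidic protein genes rpp203 (−1.42) and rpp101 (−1.19), rps1201 (−1.34) and rps2302 (−1.10) were among the lowest adjusted p, and rpl42 (0.38) was the riser. Most of these falls were less than 2-fold, since 6 of the 138 and 18 of the 69 fell at least 2-fold in the deposited table. Aminoacyl-tRNA ligase genes, which charge tRNAs, fell in 25 of 34 cases and rose in 2 (median −0.83), translation factor genes fell in 44 of 53 and rose in 3 (median −0.75), and subunit genes of RNA polymerases I and III fell in 16 of 18 with 0 higher (median −0.68), by the deposited table. Examples were wrs1 (−1.17), tif302 (−1.12) and rpa49 (−1.14). Of 48 mitochondrial ribosomal protein genes 23 fell and 3 rose, with a smaller deposited median (−0.26). Set beside these groups, proteasome genes had the smallest shift, with a deposited median of −0.15, near the −0.13 of all protein-coding genes. Of 33 such genes 7 were lower (21.2%, against 34.3% of all sense entries and 38.5% of protein-coding genes) and 0 higher.

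Most ribosomal protein promoters of fission yeast hold the HomolD box, CAGTCACA, or its complement, which stands in place of a TATA box. It was in 88 of 138 of them (63.8%) and in 137 of 5038 promoters in all (2.72%). Within the ribosomal protein genes, the median deposited log2 fold was −0.57 with the box and −0.59 without it. The promoters of rpp203 (I:3868839-3869138) and rps1201 (III:552924-553223) are shown with the box in capitals, read on the strand of the gene from RefSeq (ASM294v3).
rpp203: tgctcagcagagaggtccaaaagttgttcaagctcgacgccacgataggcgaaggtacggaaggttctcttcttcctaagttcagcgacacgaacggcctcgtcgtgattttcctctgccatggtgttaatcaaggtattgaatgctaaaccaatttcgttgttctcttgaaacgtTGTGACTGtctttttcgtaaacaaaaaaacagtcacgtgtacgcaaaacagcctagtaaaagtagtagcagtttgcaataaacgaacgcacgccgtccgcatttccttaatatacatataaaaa
rps1201: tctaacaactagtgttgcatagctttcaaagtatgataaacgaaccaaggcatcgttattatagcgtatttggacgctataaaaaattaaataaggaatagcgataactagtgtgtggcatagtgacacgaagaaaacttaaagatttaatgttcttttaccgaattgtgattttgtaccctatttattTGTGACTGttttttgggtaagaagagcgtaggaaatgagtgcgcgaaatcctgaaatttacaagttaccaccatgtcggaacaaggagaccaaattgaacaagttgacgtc

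**Figure D2:**
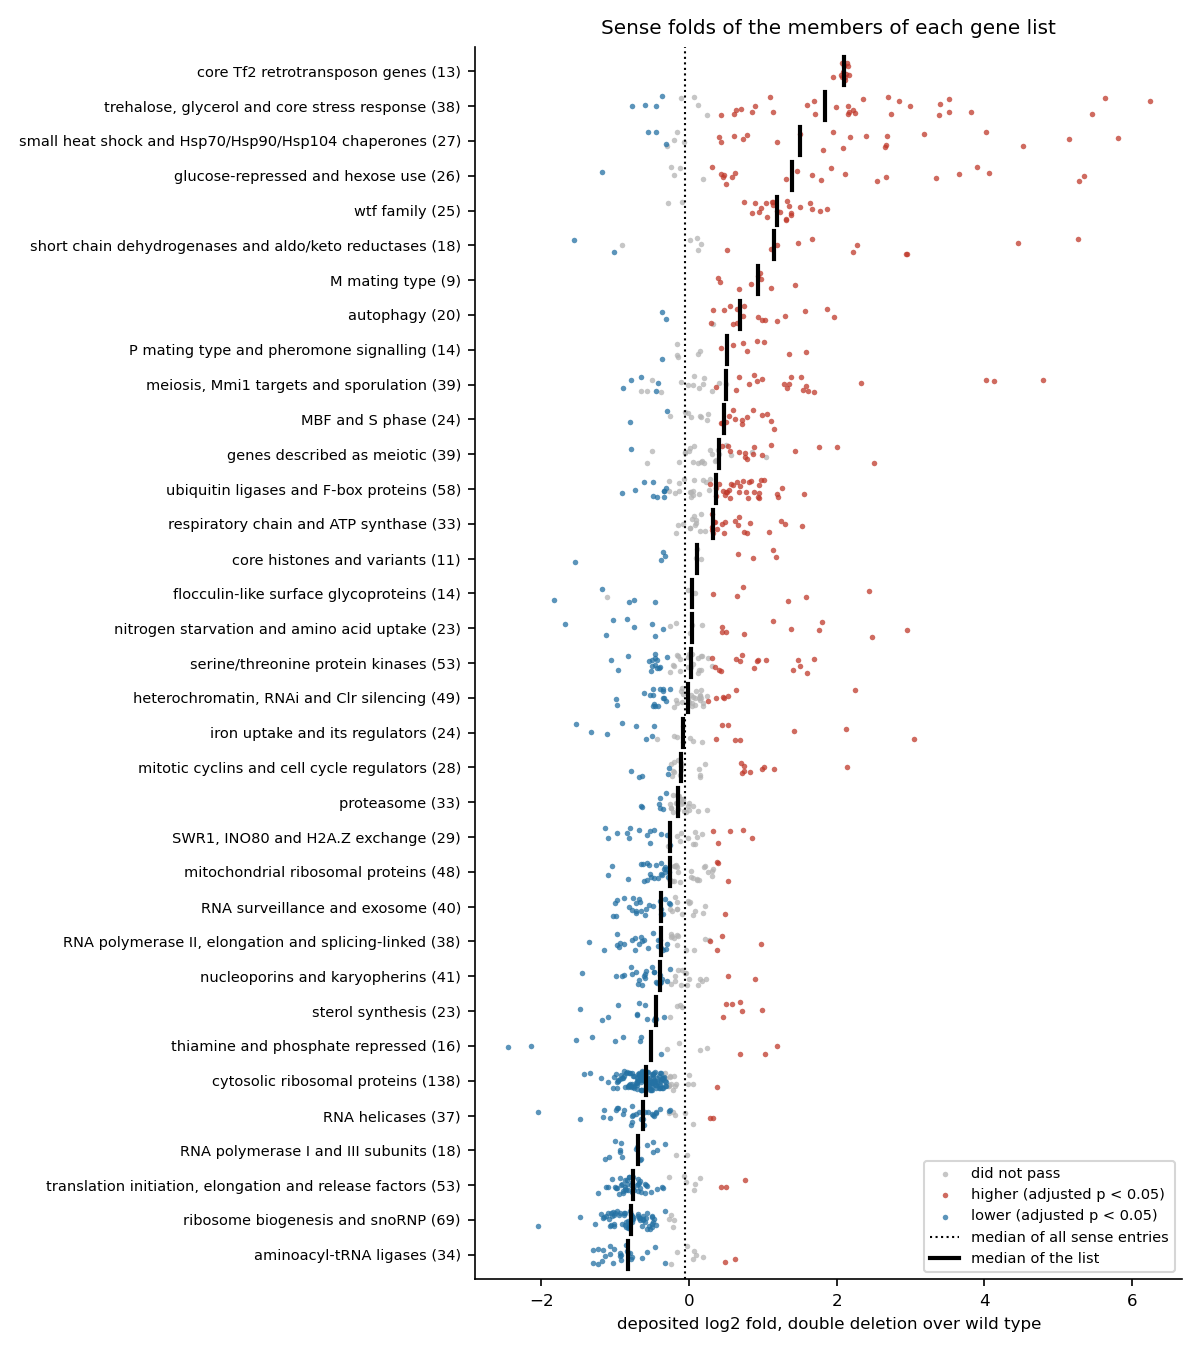
Each point is the deposited log2 fold of 1 gene (x axis) in 1 list (rows, with the number of members), coloured by call, and black bars are list medians, sorted from the highest at the top. Core Tf2 genes (median 2.11) and stress genes (1.85) stand at the top, and tRNA ligase genes (−0.83) and ribosome biogenesis genes (−0.78) at the bottom, against a median of −0.05 over all sense entries (dotted).

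Genes of transcription and RNA decay were lower more often than higher, by small folds. Of 38 genes of RNA polymerase II, elongation and splicing 23 fell and 4 rose (median deposited log2 fold −0.38), with the polymerase subunit genes rpb8 (−1.36), rpb4 (−1.14), rpb6 (−0.97) and rpb3 (−0.97) lower and ell1 (0.97) and brr2 (0.45) higher. The RNA surveillance list, which holds the exosome that degrades stray RNA, had 25 of 40 lower and 1 higher (median −0.38). There mmi1 (−1.03), which marks meiotic RNA for decay, and rrp41 (−0.99), an exosome gene, were lower in the deposited table, and red5 rose (0.49). Of 29 genes of SWR1, INO80 and H2A.Z exchange 14 fell and 5 rose (median −0.26). swc5 (−1.14), alp5 (−1.09), the H2A.Z chaperone gene chz1 (−0.81), arp5 (−0.80) and rvb2 (−0.68) fell in the deposited table, while msc1 (0.86) and swc2 (0.74), the SWR1 subunit that binds H2A.Z, rose. Of 49 heterochromatin and silencing genes 17 fell (34.7%) and 7 rose (14.3%), with a deposited median of −0.02. The share that fell was near the 34.3% of all sense entries, and of protein-coding genes 38.5% fell and 26.9% rose. The deacetylase gene clr6 (−0.98), the CENP-B gene cbp1 (−0.98) and swi6 (−0.49), the HP1 gene, were lower, and the largest rise was that of atf1, given above among stress genes.

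Among 11 core histone and variant genes 4 rose and 4 fell, 36.4% each and so near the shares of all sense entries (30.5% and 34.3%). Of protein-coding genes alone 26.9% rose and 38.5% fell. A further 3 of the 11 histone genes did not pass, and the fallers include the deleted gene pht1 itself. hhf3 (1.18), hht3 (1.14), hht2 (0.87) and htb1 (0.66) rose in the deposited table. Of the 11, htb1, cnp1 and hhf2 overlap another gene. The centromeric H3 gene cnp1 (−0.37), hta1 (−0.35) and hht1 (−0.32) fell by little. hhf2 (0.16), hta2 (0.11) and hhf1 (0.10) did not pass in the deposited table. Of 14 centromeric noncoding RNAs, all in repeated sequence, 2 rose, SPNCRNA.365 (1.78) and SPNCRNA.360 (1.06), and 3 fell, SPNCRNA.485, SPNCRNA.359 (−0.94) and nam5 (−0.90), in the deposited table.

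Markers of mating type were read against the labels. All 9 M genes found in the deposited table rose in the h- double deletion, by folds between 0.39 and 1.44 on the log2 scale. They were the pheromone genes mfm3 (1.44), mfm1 (0.98) and mfm2 (0.68), the receptor gene mam2 (1.11), mam3 (0.96), mam1 (0.39), sxa2 (0.42) and mat3-Mc (0.93) and mat1-Mc (0.84), which share their sequence. On the P side the factor gene map1 (1.02) and map4 (0.74) rose in the deposited table, and map2 (−0.16), map3 (−0.14) and sxa1 (−0.17) did not pass. M genes are read mainly in h- cells and P genes in h+ cells. The M genes were higher in the group labelled h-, 2 of the 9 by at least 2-fold. The P genes were not lower there, since map1 and map4 rose and map2, map3 and sxa1 did not pass. The mating factor gene ste11, given above, rose by 2.48. Whether the M genes rose by mating type or together with other mating genes was not tested. The pheromone pathway genes ste6 (1.35, overlapping another gene), spk1 (1.59), rgs1 (0.92) and fus1 (0.78) rose and ras1 fell (−0.36), so that 8 of 14 on that list rose and 1 fell.

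Genes listed under meiosis, Mmi1 targets and sporulation were more often higher than lower. The list also holds hsp9 and pho1, which were given above with other groups. Of 39 listed 20 rose and 5 fell (median deposited log2 fold 0.50), with mug14 at 4.79 (overlapping another gene), mug147 at 4.13 and mug191 at 2.33 in the deposited table. Of 39 genes described as meiotic 15 rose and 1 fell, with rec15 of recombination at 2.50 and ste7 at 2.01. The wtf genes, a family that holds spore killers and their antidotes, rose in 23 of 25 cases and did not pass in 2, wtf11 (−0.29) and wtf14 (−0.10). Their deposited median was 1.20, with wtf22 at 1.87, wtf6 at 1.78 and wtf23 at 1.38. 5 of the 25 share sequence or overlap another gene. MBF targets of S phase had 14 of 24 higher and 2 lower (median 0.47), such as mik1 (1.16), ctp1 (1.11), cdt2 (1.06, overlapping another gene) and the ribonucleotide reductase gene cdc22 (0.72) in the deposited table.

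Entries near chromosome ends were higher more often than entries elsewhere, clearly on chromosomes I and II and by little on chromosome III. Within 100 kb of an end, 35 of 69 entries of chromosome I rose (50.7%), 25 of 64 of chromosome II (39.1%) and 30 of 84 of chromosome III (35.7%), with deposited medians of 0.79, 0.26 and 0.19. Beyond 100 kb the shares were 29.8%, 28.4% and 32.7%. Of the 12 lowest entries SPBPB2B2.08, SPBPB10D8.01 and SPBPB10D8.02c lie within 100 kb of an end of chromosome II too.

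Antisense signal was higher at most genes of a table that the authors selected for change. Its header states that it lists features different from wild type in the mutants at p under 0.01, so its shares describe a chosen list and say nothing of all genes. At 1052 annotated genes in it, antisense signal rose in 806 (76.6%) and fell in 107 (10.2%), and the median deposited log2 fold was 1.53. The highest was at pfl8, a cell surface glycoprotein gene (5.71, adjusted p = 5.28e-11), whose sense entry fell (−1.18). Next in the deposited table came the dubious gene SPAC343.20 (5.56), which lies past the end of the stress gene rds1 and converges on it, SPCC191.10 (5.51), duc1 (5.47), SPBC1685.04 (5.22), atg38 (5.12) and SPCC1020.13c (5.08), the gene whose end overlaps xap5. By the labels xap5 is replaced by the KanMx4 cassette, and the source of the signal at SPCC1020.13c was not tested. At mug9 (4.95), SPBPB21E7.11 (4.92), iss1 (4.78), rad55 of recombination (4.55) and ser2 of serine synthesis (4.52, overlapping another gene) deposited antisense signal was also high. The 4 lowest were ypt71 (−5.14), lsm5 (−4.98), rpl802 (−3.73) and tif313 (−3.57).

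The sense entry of a gene did not move in a set direction with its antisense signal. Of the 806 genes with higher antisense signal 7 had no sense entry. Among the rest the deposited sense entry fell in 321 (40.2%), rose in 217 (27.2%) and did not pass in 261. These shares are near those of all protein-coding genes, of which 38.5% fell and 26.9% rose. Among the 107 genes with lower antisense signal 49 sense entries fell and 28 rose. At iss1, ser2 and SPBC1685.04 the deposited sense folds were −0.44, −1.46 and −0.85 while antisense signal rose. At duc1 (1.13) and SPBPB21E7.11 (5.16) sense and antisense rose together.

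**Figure D3:**
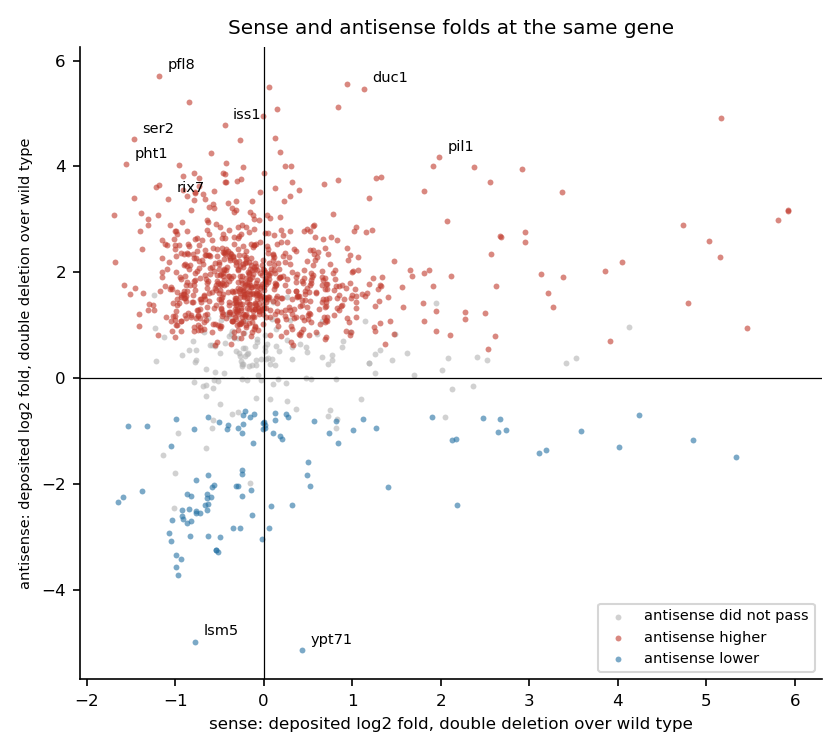
Each point is a gene of the antisense table, with the deposited log2 fold of its sense entry on the x axis and of its antisense signal on the y axis, coloured by the antisense call. Points with higher antisense signal (red) lie on both sides of 0 on the x axis, with a median sense fold of −0.16.

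Where the next gene past the end of a gene reads toward it, that gene was more often higher if antisense signal had risen. Of 381 such convergent neighbours of genes with higher antisense signal 192 rose (50.4%) and 84 fell (22%), against 722 of 2706 that rose (26.7%) and 1050 that fell (38.8%) over all convergent pairs of protein-coding genes, by the deposited sense table. Among all genes of the antisense table, whatever their antisense call, 39% of 549 convergent neighbours rose and 33.3% fell. For neighbours in the same direction the shares that rose were 33.4% of 416 beside genes with higher antisense signal, 32.6% of 494 beside all genes of the antisense table and 24.8% of 2247 over all protein-coding genes. An example is iss1, with cum1 (sense log2 fold 5.36 in the deposited table) ending 249 bases past it by coding spans. A total of 385 of 802 genes with higher antisense signal (48%) had a convergent neighbour, as did 54.7% of 4993 protein-coding genes, so convergent order itself was not more common among them. Whether reads past the end of the neighbour enter the antisense signal was not tested.

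By gene group, antisense signal rose at 1 of 138 cytosolic ribosomal protein genes (0.725%) and fell at 12, against 782 of 4997 protein-coding genes with a rise (15.6%) in the deposited table. It rose at 13 of 41 nucleoporin and karyopherin genes (31.7%), at 7 of 24 MBF genes (29.2%), at 7 of 24 iron genes (29.2%) and at 11 of 40 RNA surveillance genes (27.5%). At stress genes it rose in 2 of 38 cases. Genes that the deposited table leaves out count as not higher, so these shares depend on the selection.

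Of 414 annotated antisense RNAs, which have their own gene identity, 335 rose (80.9%) and 39 fell (9.42%) in the deposited table, with a median log2 fold of 1.26. The highest were SPNCRNA.1075 (5.30), SPNCRNA.1223 (5.02), SPNCRNA.754 (4.79), SPNCRNA.1155 (4.25), SPNCRNA.931 (4.25) and SPNCRNA.1208 (4.24). The lowest were SPNCRNA.1307 (−2.88), which lies opposite the faller SPBPB10D8.02c, SPNCRNA.957 (−2.46) and SPNCRNA.1376 (−2.30), both in repeated sequence.

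The deposited intergenic table held more introns than gaps between genes. Of its 6121 regions, 3316 equal an intron of the reference annotation base for base, and these are described apart from the other 2805. Among introns 321 rose (9.68%) and 49 fell (1.48%), with a median deposited log2 fold of 0.37. Among the other regions 596 rose (21.2%) and 51 fell (1.82%), with a median of 0.52. The sources used here do not give the strand of this table, so intron signal may hold unspliced RNA of the gene, antisense RNA or both, and these cannot be told apart.

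Most introns had a higher fold than the gene that holds them. For 3310 introns with a sense entry of the host gene, the intron fold exceeded the host fold in 2512 (75.9%), with a median difference of 0.51 in deposited log2 folds, intron minus host. The folds come from separate tables whose scaling is not known, and the whole intergenic table had a median of 0.43 against −0.05 for sense entries, so a shift between the tables and a rise of introns cannot be told apart. Introns of genes with higher antisense signal rose more often, in 86 of 487 cases (17.7%), than introns of genes left out of the antisense table, in 225 of 2663 (8.45%). The 66 introns of ribosomal protein genes had a deposited median of −0.11, above that of their host genes at −0.49. Protein-coding genes with an intron in the table fell in 42.8% of 1813 cases and those with none in 36% of 3184.

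**Figure D4:**
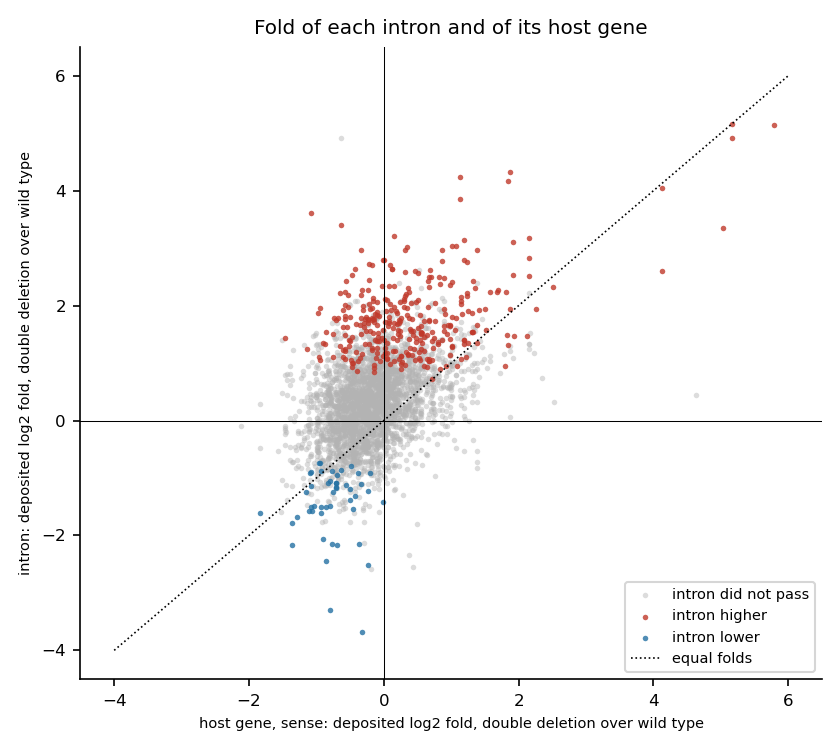
Each point is an intron, with the deposited log2 fold of its host gene's sense entry on the x axis and its own on the y axis, coloured by the intron call, and the dotted line marks equal folds. Of 3310 introns 2512 lie above the line, and the median of the whole intergenic table (0.43) also lies above that of sense entries (−0.05).

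Of the 8 highest introns some lay near the fold of the host gene and others well above it. In the deposited table the introns of SPBPB21E7.11 had 5.16 and 4.92 with a host fold of 5.16, and that of prl65 had 5.14 with a host fold of 5.79. The intron of SPBC3H7.08c had 4.04 with a host fold of 4.13. Above their hosts lay the introns of wtf22, with 4.32 and a host fold of 1.87, and gor1, with 4.18 and a host fold of 1.85, in the deposited table. At duc1 both introns had folds, 4.25 and 3.85, above that of the sense entry (1.13), and deposited antisense signal there was 5.47. The lowest were introns of smp3 (−3.68), sec61 (−3.30), prp3 (−2.51) and sec6102 (−2.45), the first with a deposited adjusted p of 0.0476. Elsewhere introns rose while the host fell. The intron of rix7, a ribosome biogenesis gene, rose by 3.61 with a host fold of −1.08 and an antisense fold of 3.39. That of cut12 of the spindle pole rose by 3.41, with a host fold of −0.63 and an antisense fold of 2.34. That of rad26 of the checkpoint rose by 2.97, with a host fold of −0.34 and an antisense fold of 2.28. The sequences of these introns are shown beside introns that fell with their host, of SPAC3G6.05 (−1.79) and rar1 (−1.50), to let their ends be compared. The first 6 and last 3 bases are in capitals, on the strand of the gene, from RefSeq (ASM294v3, II:1934026-1934086, II:541290-541331, I:4452586-4452640, I:5389254-5389322 and II:1409560-1409620).
rix7 intron: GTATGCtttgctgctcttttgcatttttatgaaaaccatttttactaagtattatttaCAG
cut12 intron: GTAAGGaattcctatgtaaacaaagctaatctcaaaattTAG
rad26 intron: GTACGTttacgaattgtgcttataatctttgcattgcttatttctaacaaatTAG
SPAC3G6.05 intron: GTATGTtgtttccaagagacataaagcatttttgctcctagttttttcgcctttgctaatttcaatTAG
rar1 intron: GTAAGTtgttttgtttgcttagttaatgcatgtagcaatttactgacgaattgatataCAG

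Of the 321 introns that rose 320 begin with GT and end with AG, as do 3301 of all 3316. The starts GTAAGT and GTATGT opened 157 of the 321 that rose (48.9%), 31 of the 49 that fell (63.3%) and 1599 of all (48.2%). Introns that rose in the deposited table were longer, with a median of 75 bases, than those that did not pass, with 57, and the part of length in this was not tested.

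Regions between genes were higher most often where both flanking genes point away from the gap. Of 784 divergent regions, which hold 2 promoters, 271 rose (34.6%) and 10 fell, with a median deposited log2 fold of 0.94. Tandem regions, with 1 promoter, rose in 237 of 1453 cases (16.3%, median 0.37) and convergent regions, with none, in 71 of 429 (16.6%, median 0.32). Length differs between these classes and was held apart. For regions of 300 to under 1000 bases the shares that rose were 34% of 426 divergent, 18.7% of 603 tandem and 22.9% of 105 convergent regions. At 100 to under 300 bases they were 20.5% of 112, 10.6% of 537 and 13.1% of 160, and the deposited medians in that range were 0.80, 0.28 and 0.29. Many of these regions are not empty in the reference. Of the 2805 regions other than introns, 1216 overlap a noncoding gene (23.9% rose) and 659 a protein-coding gene (22.3% rose). The 930 that overlap none rose in 17% of cases. The flank classes were not split by such overlap, so its part in their difference was not tested.

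Higher divergent regions did not always have a higher gene beside them. Of 261 that rose and have sense entries on both sides, 95 had neither gene higher (36.4%), 115 had 1 and 51 had both. Over all 755 such regions neither gene was higher in 49.9%. The 5 with the lowest adjusted p are given in that order. The region between lsd90 and SPBC16E9.20 (chromosome II 1950256 to 1951121) rose by 4.38 with flanking sense folds of 4.40 and 1.73. That between tpr1 and SPAC637.03 (chromosome I 4540299 to 4542090) rose by 3.84 with flanking deposited folds of −0.31 and 4.01. That between rnc1 and vph2 (chromosome III 66973 to 68087) rose by 3.86 with flanking deposited folds of 0.54 and 0.98. The region between mae2 and SPCC794.15 (chromosome III 277341 to 278235) rose by 3.34 with flanking folds of 0.31 and 0.32. That between srp54 and ccq1 (chromosome III 1485268 to 1486076) rose by 3.65 with flanking deposited folds of −0.61 and 0.13. The last 3 overlap noncoding genes of the reference, and that beside tpr1 a protein-coding one.

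Among named regions of at least 100 bases the highest was the gap between put4 and SPAC869.09, with a deposited log2 fold of 6.61 (adjusted p = 1.17e-16), next to the sense fold of 6.39 of SPAC869.09, whose end it follows. The gap past the end of zym1, before scd2, had 5.27 (adjusted p = 1.67e-36) beside 5.63 for zym1. The region between gap1 and sds23 (chromosome II 948224 to 948887) had 5.58 with flanking deposited folds of −0.11 and 0.93, and that before ght3 (chromosome I 82346 to 82745) had 5.27 beside 3.66 for ght3. A region between ncs1 and SPAC18B11.03c (chromosome I 311713 to 311919) reached 5.64 with a deposited adjusted p of 0.0266. Regions next to SPBPB21E7.11 (5.21), before tlh2 (5.17, a subtelomeric helicase-like gene in repeated sequence) and before aes1 (5.12) followed. The lowest were a gap between SPAC16C9.01c and mta1 (−3.83), the gap of 2095 bases next to SPBPB10D8.02c (−3.09), a stretch between fta3 and vac7 (−2.24), an intron of vma5 (−2.15) and the gap past bsu1 (−1.85). Both gaps past gene ends are shown on the plus strand of ASM294v3 (I:5496598-5496843 and I:2382201-2382469), since they hold the highest fold and the lowest adjusted p among the named gaps. The first overlaps an LTR.
put4 to SPAC869.09: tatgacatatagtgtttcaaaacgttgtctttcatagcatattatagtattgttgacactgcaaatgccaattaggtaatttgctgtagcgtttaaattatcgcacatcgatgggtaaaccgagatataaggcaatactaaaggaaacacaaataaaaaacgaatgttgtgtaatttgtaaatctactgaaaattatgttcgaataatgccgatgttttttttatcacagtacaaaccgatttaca
zym1 to scd2: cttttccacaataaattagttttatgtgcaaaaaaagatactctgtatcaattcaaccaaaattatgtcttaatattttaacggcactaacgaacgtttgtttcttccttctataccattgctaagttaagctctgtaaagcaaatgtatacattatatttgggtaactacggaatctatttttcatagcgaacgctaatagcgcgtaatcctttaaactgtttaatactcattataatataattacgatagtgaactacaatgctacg

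Core Tf2 genes and most LTRs noted as Tf2 were higher, while most LTRs noted as Tf1 did not pass. Tf1 and Tf2 are the LTR retrotransposons of fission yeast, and the reference strain carries full Tf2 elements and solo LTRs, the single repeats left behind by recombination. All 13 core Tf2 genes listed rose, with deposited log2 folds between 1.96 and 2.17. They share their sequence, so that reads cannot be assigned to 1 copy and the 13 values are not independent. Of 117 LTRs 79 rose (67.5%) and 1 fell (0.855%), with a median deposited log2 fold of 1.81. LTRs noted as Tf2 rose in 55 of 68 cases (median 1.97) and those noted as Tf1 in 17 of 38 (median 0.98). All 21 Tf2 LTRs within 700 bases of a Tf2 element rose (median 2.37), and of 47 elsewhere 34 rose and 1 fell (median 1.66).

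Sharing of sequence moved with these folds. Of 49 LTRs that share most of their sequence with another place in the genome 42 rose (median 2.17), and of 68 that do not 37 rose and 1 fell (median 1.32), so the rise was seen in both kinds in the deposited table. The highest was LTR-685, a degraded Tf1-type LTR on chromosome III (5.17, adjusted p = 2.72e-05), 95 bases from vps5 (sense fold 0.12). LTR-27, a Tf2-type solo LTR on chromosome II, followed with 4.79. Next in the deposited table were LTR-4314 (3.17), LTR-782 (2.97), LTR-3078 (2.73), LTR-3884 (2.68), LTR-4955 (2.68) and LTR-2128 (2.64), of which all but LTR-3078 flank a Tf2 element. LTR-1652, noted as Tf2, was the faller (−1.81). Regions of the intergenic table that overlap an LTR and are no introns rose in 78 of 156 cases (50%), against 518 of 2649 others (19.6%).

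**Figure D5:**
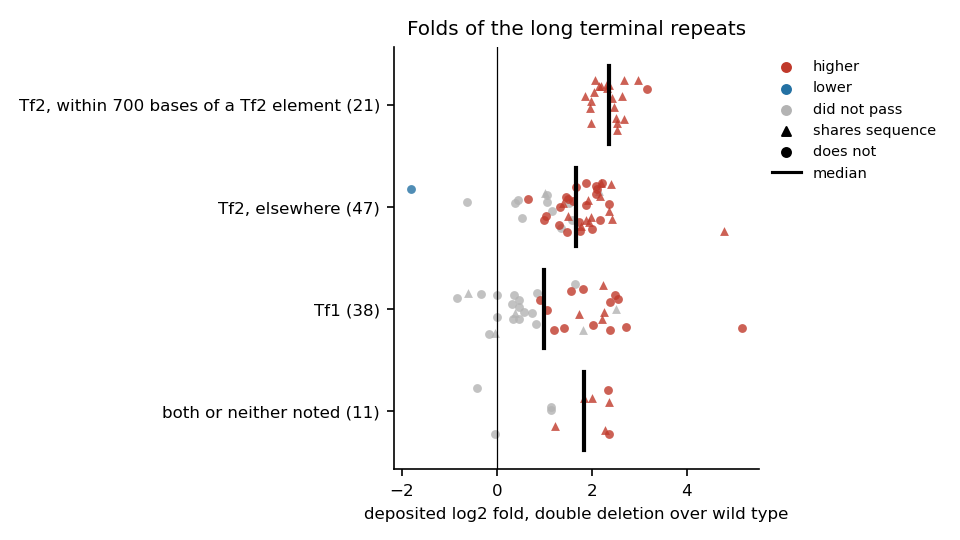
Each point is an LTR placed by its deposited log2 fold (x axis), in rows by the family noted and by nearness to a Tf2 element, with triangles for LTRs that share sequence and black bars for medians. Tf2 LTRs beside Tf2 elements have a median of 2.37, while Tf1 LTRs have a median of 0.98 and reach 5.17.

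The first 200 bases of 3 LTRs are shown in the direction of the repeat (ASM294v3), to let the copies that rose be compared. LTR-3884 (I:4026544-4026743) flanks Tf2-6. In LTR-27 (II:93661-93860) and LTR-685 (III:702136-702335) capitals mark bases that do not match LTR-3884 in a global alignment of the whole repeats, which gave 78.5% and 58.9% identity.
LTR-3884: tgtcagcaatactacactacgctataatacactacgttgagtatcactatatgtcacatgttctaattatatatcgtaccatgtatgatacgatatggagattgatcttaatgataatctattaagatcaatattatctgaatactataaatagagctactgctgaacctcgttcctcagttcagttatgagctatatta
LTR-27: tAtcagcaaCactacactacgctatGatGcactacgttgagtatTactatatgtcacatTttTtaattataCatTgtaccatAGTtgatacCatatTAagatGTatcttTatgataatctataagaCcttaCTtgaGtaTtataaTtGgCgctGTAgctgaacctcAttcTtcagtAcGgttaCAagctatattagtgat
LTR-685: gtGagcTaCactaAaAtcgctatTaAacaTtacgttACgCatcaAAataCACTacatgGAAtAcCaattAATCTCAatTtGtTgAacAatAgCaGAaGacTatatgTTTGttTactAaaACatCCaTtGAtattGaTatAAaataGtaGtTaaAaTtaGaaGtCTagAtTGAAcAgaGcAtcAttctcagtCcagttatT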

How the data were processed

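The authors compared RNA-seq libraries of the double deletion (3 deposited) with wild type (4 deposited, 3 per genotype stated in the labels). Per the submitters' processing notes BWA 0.5.8c and edgeR were used, with no role or edgeR version given, and the sources used here do not give how counts were normalized. The authors deposited log2 fold changes (base 2 by the convention of edgeR), p-values and adjusted p-values. Deposited p-values above 1, 17 among sense and 3 among antisense entries, are handled as a score. Ensembl EF2.12 is named per the file headers. No standard error or depth of single libraries was used, so no interval or floor is given and no test of this work was run. Precision rests on the stated mean of 11.8 M reads per library.

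Features counted as changed had a deposited adjusted p under 0.05. IDs were matched without regard to case to RefSeq ASM294v3 (5639 of 5747 sense entries). Its chromosome lengths and 114 LTR positions fit the tables, and region starts were raised by 1 base, after which 3316 regions equal introns. A feature shares sequence where most of its windows of 100 bases occur elsewhere. Gene lists came from 27 sets of symbols and 13 of description words, the latter added after the tables were seen. 15 genes whose description contradicted their list were left out by description. Members and lists were chosen with earlier results of these data known. One list is not reported here. Lists overlap, are described by counts and medians beside all sense entries and in places all protein-coding genes, and got no set test. Named features follow a rule: the 12 highest and 12 lowest sense folds, up to 5 members of a list by adjusted p (and 2 in the other direction), and the extremes of each other table. Other list members, introns, divergent regions and motifs were picked after their values were seen. Alternatives were other thresholds, a 2-fold minimum, Benjamini-Hochberg adjustment within a table, and subsets of features. Python 3.11.15, pandas 2.3.3 and Biopython 1.88 were used, and the adjustment was tested on simulated data.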

Additional observations from a re-analysis of the deposited data

How the results depend on the processing

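No paired analysis was possible because the tables hold no value per library, and leaving out single libraries could not be run for the same reason. Counts kept within 1.5 times of those reported in 48 of 60 comparisons with an alternative, and list counts in 212 of 260. At least 2-fold, 869 sense entries rose and 293 fell, and of the members of the symbol lists 132 rose and 45 fell, against 250 and 356 with no minimum fold, so the excess of lower calls turned into an excess of higher calls. At adjusted p under 0.01, 555 regions of the intergenic table rose and 35 fell, against 917 and 100. Regions of at least 100 bases that fell numbered 55. Without regions that overlap a reference gene 158 rose and 20 fell. Added after the data were seen, the table without introns had 596 higher and 51 lower regions, and the LTR table without shared sequence had 37 higher LTRs. These alternatives hold fewer features or a stricter rule by construction. Both deleted genes stayed below the threshold of 0.05 under Benjamini-Hochberg adjustment within the table and under 0.01. The depth of single libraries limits low features, and the reads behind each fold are not known here.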

Other observations

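Several gene groups chosen by description words were not described above. Of 41 nucleoporin and karyopherin genes, which carry traffic through the nuclear pore, 2 rose and 25 fell (median deposited log2 fold −0.39), and nup61 had −1.45. Of 37 RNA helicase genes 2 rose and 30 fell (median −0.62), and of 23 sterol synthesis genes 6 rose and 13 fell (median −0.45), with erg31 at −1.48 in the deposited table. Of 53 serine/threonine kinase genes 16 rose (30.2%) and 15 fell (28.3%). Of all sense entries 30.5% rose and 34.3% fell, and of protein-coding genes 26.9% and 38.5%. Genes with no described relative, called sequence orphans, rose in 130 of 285 cases and fell in 56 (median 0.29).

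Among 28 genes listed as mitotic cyclins and cell cycle regulators 9 rose (32.1%), near the 30.5% of all sense entries and beside 26.9% of protein-coding genes. In that list 5 fell (17.9%), against 34.3% of all sense entries and 38.5% of protein-coding genes. The stress-activated kinase gene srk1 (2.15), the checkpoint kinase gene cds1 (1.01) and the cyclin-dependent kinase inhibitor gene rum1 (0.75) rose in the deposited table, and chk1 (−0.79), the other checkpoint kinase gene, and cdc5 (−0.68) fell. Of 14 flocculin-like genes and their regulators 6 rose (42.9%, against 30.5% of all sense entries), among them lkh1 (2.44), pfl2 (1.59) and mbx2 (1.34). A further 5 fell (35.7%, near the 34.3% of all sense entries), among them pfl3 (−1.82) and cbf11 (−0.74). Both marker genes with an entry were lower, ade6 by −0.65 and leu1 by −0.66 in deposited log2 folds, although both groups carry the same alleles.

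Other promoter motifs were searched on both strands as well. ACGCGT was in 9 of 24 MBF promoters (37.5%) and in 3.26% of all. CCCCTC was in 3.88% of promoters of genes that rose at least 2-fold and in 2.14% of all, while TGTTTAC (15.2% and 16.4%) and CCAAT (42.3% and 42.2%) were near the share of all promoters. GAANNTTC was in 8 of 16 wtf promoters read, and wtf genes share parts of their sequence.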
